A study of Homo sapiens with 2 samples.

Results

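The regions described here were the LV-HOXA5 peaks whose nearest edge lay more than 500 kb from every RefSeq gene of GRCh38. They numbered 955 of the 8043 peaks in the LV-HOXA5 list (11.9%, exact 95% binomial interval 11.2 to 12.6). The rule used position alone, so the number and the emptiness of their surroundings are a description. They are called distant peaks below.

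TFK-1 is an extrahepatic cholangiocarcinoma (ECCA) cell line. The LV-HOXA5 group consisted of TFK-1 cells made to overexpress Flag-tagged HOXA5 from a lentiviral vector, and the LV-HOXA5-NC group consisted of TFK-1 cells carrying the normal control vector. Both were puromycin-selected, and both were profiled with an anti-Flag antibody by CUT & Tag, in which a transposase tethered to the antibody cuts and tags the DNA nearby. Each condition had 1 library, so no test between conditions was possible, and the binomial and Poisson intervals given here cover counting error only. The vector raises HOXA5 above the level of the parental line, and control cells were given no HOXA5 vector, so control peaks mark where the assay gave signal without it. The peak lists hold no measure of HOXA5 itself against which the labels could be checked.

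HOXA5 is a homeobox transcription factor, and proteins of this class are known for binding short AT-rich motifs near the genes they regulate. The largest gene-free stretches of human chromosomes are the centromeres and the heterochromatin beside them. Centromeres are built of alpha satellite, a monomer repeated head to tail in arrays, and classical satellites form further blocks beside some centromeres and on the long arm of chromosome Y. GRCh38 represents most centromeres by modelled alpha satellite arrays, and chromosomes 1, 5 and 19 share near-identical arrays, as do groups of acrocentric chromosomes (13 with 21, and 14 with 22). A short read from such a repeat can match many places equally well. No genome sequence or repeat annotation was used here, so the satellite class of a given peak was not read, and no peak sequence is shown.

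The LV-HOXA5 list was made from 15778555 fragments and the LV-HOXA5-NC list from 1948734, so the LV-HOXA5 library was 8.10 times deeper. The lowest pileup, the number of fragments stacked over the summit of a peak, was 8 in the LV-HOXA5 list and 4 in the LV-HOXA5-NC list. By the same rule 168 of the 635 control peaks were distant (26.5%, 23.1 to 30.1).

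The distant peaks lay deep in gene-free DNA. Their distance to the nearest gene ranged from 500.5 to 3612 kb with a median of 1135 kb, and 586 of them (61.4%) were over 1 Mb away. Around the limit, the nearest peaks inside it were at 500492 bp (chromosome 9), 501227 bp (chromosome 19) and 502683 bp (chromosome 20) and had pileups of 11, 10 and 15. The nearest outside it were at 497287 bp (chromosome 19), 491012 bp (chromosome Y) and 487862 bp (chromosome 20), with pileups of 65, 13 and 15.

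All 24 nuclear chromosomes held distant peaks, but very unequally. Chromosome 5 held 149, chromosome 10 held 136, chromosome 19 held 134 and chromosome 1 held 130. Chromosome 5 thus had 15.6% of the distant peaks and 5.90% of all other LV-HOXA5 peaks, chromosome 10 had 14.2% and 5.47%, chromosome 19 had 14.03% and 4.77%, and chromosome 1 had 13.6% and 8.23%. Chromosome 20 followed with 64, chromosome 7 with 52 and chromosome 12 with 49. At the other end, chromosomes 15 and 18 had 1 each, chromosome Y had 2 and chromosome 8 had 4.

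**Figure D1:**
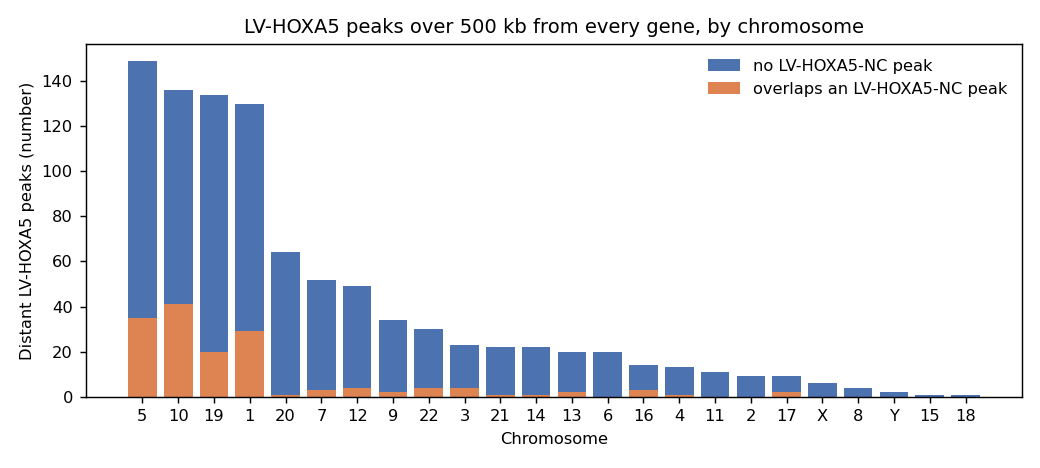
Number of distant LV-HOXA5 peaks on each chromosome (bars, counts), split into those that overlap an LV-HOXA5-NC peak by 1 bp or more and those that do not. Chromosomes 5, 10, 19 and 1 stand well above the rest, and 125 of their 549 peaks overlap the control list.

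This order did not follow the length of the gene-free intervals. GRCh38 has 32 gene-free intervals of over 1 Mb, which hold 177 Mb lying over 500 kb from a gene, and 25 of these intervals contained distant peaks. Per Mb of that length there were 56.0 distant peaks on chromosome 10, 53.6 on chromosome 19, 48.2 on chromosome 20 and 40.3 on chromosome 5. Chromosome 9, with 16.7 Mb, had 2.04 per Mb, and chromosome 13, with 16.8 Mb, had 1.19. On chromosome 1 the interval held 20.7 Mb, and its 130 peaks occupied 2.68 Mb of it. The 7 intervals without distant peaks included the largest of all, 29.2 Mb on the long arm of chromosome Y, and the short arms of chromosomes 14, 21 and 22. Stretches of unknown bases, which no read can match, were not separated from sequence in these lengths. The values per Mb therefore need not compare like amounts of sequence.

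The 2 peaks on chromosome Y owe their place to the gene table. They lie at 1452787 to 1453294 and 1903530 to 1904190, with pileups of 14 and 18. Between the flanking genes the table lists 0 genes on Y but 29 on X at the same coordinates, since these bases belong to the pseudoautosomal region that X and Y share. Without chromosome Y the distant peaks numbered 953.

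Neighbouring distant peaks were joined into a run where the gap between them was at most 100 kb. This gave 93 runs, of which 37 were single peaks, 32 had 2 to 5 peaks, 18 had 6 to 20 and 6 had over 20. The 15 runs of 10 or more peaks held 757 of the 955. Within runs the 862 gaps had a median of 13967 bp, and 34 were under 1 kb.

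The largest run spanned 47311793 to 49667328 on chromosome 5 and had 144 peaks, 61.1 per Mb. To its right the nearest gene is EMB, which encodes the adhesion protein embigin, 728864 bp away. Pileup in it ran from 9 to 650 with a median of 23.

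The densest of the large runs was on chromosome 10, from 39936518 to 41584622, with 136 peaks at 82.5 per Mb and a median gap of 8237 bp. Its flanking genes are the pseudogenes CHEK2P5 and KSR1P1. Pileup ran from 9 to 190 with a median of 22.

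The run on chromosome 19, from 24807409 to 27168512, had 133 peaks with pileups of 8 to 76 and a median of 20. That on chromosome 1, from 122505856 to 124778335, had 124 peaks with pileups of 10 to 80 and a median of 21. The next gene to its right, LOC101929814, is 18521183 bp away. The run on chromosome 20, from 26784681 to 28077950, had 64 peaks and was the weakest of the 5 largest, with pileups of 8 to 24 and a median of 13. Together these 5 runs held 601 distant peaks (62.9%).

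The other 5 of the 10 runs with most peaks were shorter. They were a run of 26 peaks on chromosome 9 (43640372 to 44295733, median pileup 12), of 20 on chromosome 22 (13831064 to 14420986, median 14), of 18 and 16 on chromosome 7 (58444949 to 58938275, median 16, and 59111268 to 59643969, median 24.5) and of 15 on chromosome 12 (34830175 to 35104551, median 15). The second run on chromosome 7 had a median fold enrichment of 8.46, where fold enrichment is the pileup plus 1 over the local background plus 1, as the peak caller gives it.

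The runs on chromosomes 1, 5 and 19 had the same layout. Coordinate differences between the summits of every pair of peaks on 2 chromosomes were counted in windows of 100 bp, for the 210 pairs of the 21 chromosomes with 4 or more distant peaks. This comparison was added after the values were seen. Between chromosomes 1 and 19, 73 pairs of peaks shared a single difference, near 97594558 bp, and no window more than 1 kb away held more than 6. Between chromosomes 5 and 19 the count was 68 near 22400495 bp, with 9 in the next window. Between chromosomes 1 and 5 it was 67 near 75194063 bp, with 6 in the next. At 28 of the pairs between chromosomes 1 and 5 the start coordinates differed by exactly the same number of bases.

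The same held, on a smaller scale, for each of the 6 pairs among chromosomes 13, 14, 21 and 22, with 8 to 10 pairs of peaks at 1 difference and 2 in the next window. For the 201 other pairs of chromosomes, chromosomes 10 and 20 included, the best window held at most 7, and with a chromosome read in reverse the best window of any pair held at most 9.

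After shifting by these differences, 327 of the 413 distant peaks on chromosomes 1, 5 and 19 (79.2%) overlapped a distant peak on another of the 3. On chromosome 1 the peaks with a counterpart spanned 2272 kb and on chromosome 5 likewise 2272 kb, in which 83.9% and 85.9% of the distant peaks had a counterpart. On chromosomes 13, 14, 21 and 22 it was 76 of 94 (80.9%). Counting each recurring position once, the 955 distant peaks stood for 701 positions.

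The pileups at counterparts were close. At the 79 positions found on all of chromosomes 1, 5 and 19, the highest of the 3 pileups was a median of 1.25 times the lowest and at most 1.79 times. The peak at 122842560 to 122842936 on chromosome 1 had a pileup of 72, its counterpart at 47648507 to 47648875 on chromosome 5 had 81, and that at 25248012 to 25248389 on chromosome 19 had 76. Those at 124084344 on chromosome 1, 48890279 on chromosome 5 and 26489784 on chromosome 19 had 80, 78 and 75. The exact Poisson intervals of the 2 pileups overlapped at each of the 90, 93 and 99 pairs of counterparts between chromosomes 1 and 5, 1 and 19, and 5 and 19. Overlap of intervals is a loose criterion, and pairs were not tested one by one. Summed over the pairs, pileup was 2666 on chromosome 1 and 2718 on chromosome 5, 2698 on chromosome 1 and 2597 on chromosome 19, and 2824 on chromosome 5 and 2715 on chromosome 19.

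Control peaks recurred too. Of the 29 distant LV-HOXA5-NC peaks on chromosome 1, 16 had a counterpart on chromosome 5 and 16 on chromosome 19 at the offsets found in the LV-HOXA5 list. At the 79 positions, a control peak was present on all 3 chromosomes at 12, on 2 at 8, on 1 at 14 and on none at 45. Peaks at counterparts are therefore not separate observations, and intervals over peaks on these chromosomes are narrower than the positions would give. How reads that match several copies were placed is not given in the sources used here, and its part in these values was not tested.

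**Figure D2:**
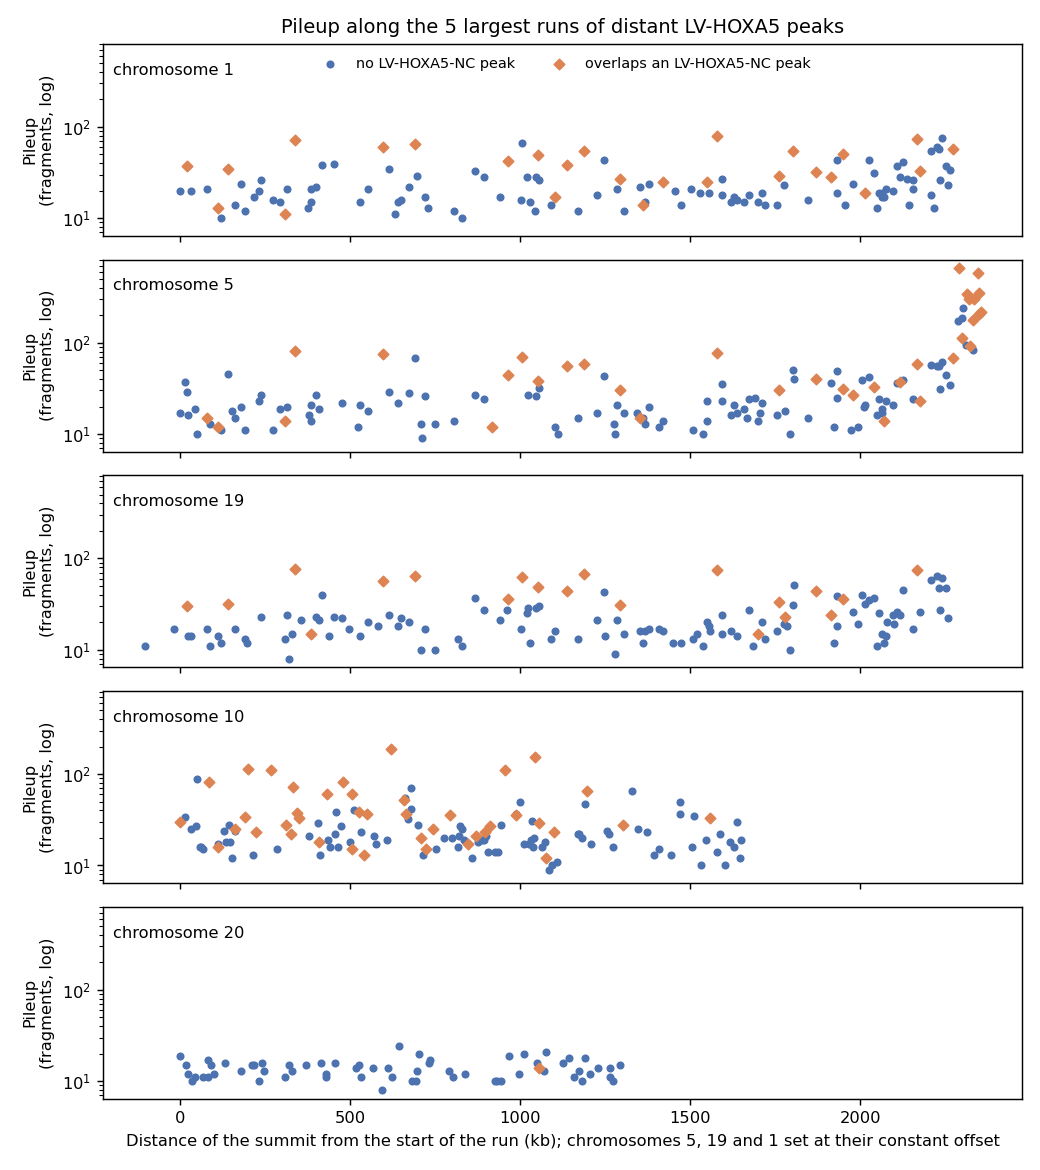
Pileup at the summit (fragments, log axis) of each distant LV-HOXA5 peak along the 5 largest runs, against distance in kb, with diamonds for peaks that overlap an LV-HOXA5-NC peak. Chromosomes 1, 5 and 19 are drawn at their constant offset, so that counterparts stand above each other: the peaks of 72, 81 and 76 fragments are near 337 kb, and the block of high pileup at the right end stands in the panel of chromosome 5.

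As a class the distant peaks were about as high as other LV-HOXA5 peaks but stood on a lower local background. Median pileup was 17 (order-statistic interval 16 to 18) and 17 among the other 7088. The local background, recovered as the pileup plus 1 divided by the fold enrichment, minus 1, had a median of 1.97 fragments (1.90 to 2.04) against 2.63 (2.60 to 2.68). Median fold enrichment was 6.12 (5.96 to 6.22) against 4.71 (4.68 to 4.74). Peaks within 1 kb of a gene end had 2.68 fragments and 4.82, and intergenic peaks 3 to 500 kb from a gene had 2.58 and 4.67. Distant peaks were also shorter, with a median of 335 bp against 395.5 bp.

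The lowest local background the caller uses is the level of the whole genome, 1.44 fragments in the LV-HOXA5 library. Within 0.01 of it stood 203 distant peaks (21.3%, 18.7 to 23.99) and 417 of the others (5.88%, 5.35 to 6.46). They were frequent on the acrocentric chromosomes, with 18 of 20 on chromosome 13, 20 of 22 on chromosome 14, 16 of 22 on chromosome 21 and 25 of 30 on chromosome 22. In the 4 largest runs they were 46 of 537 (8.57%). Outside those runs the median pileup was 14 and the median background 1.65, and inside them 21 and 2.31.

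Chromosome 17 had only 9 distant peaks but the highest fold enrichments. Their pileups, in order along the chromosome, were 34, 38, 28, 76, 18, 76, 143, 61 and 204, with a median fold enrichment of 21.98. Of the 10 distant peaks of highest fold enrichment, 5 were on chromosome 17, 3 on chromosome 10 and 2 on chromosome 4. The first, at 25920029 to 25920430 on chromosome 17, had a pileup of 204 (exact Poisson interval 177 to 234) and a fold enrichment of 32.0, and it overlapped a control peak of 23 fragments. The second, at 25389774 to 25390185, had 143 (121 to 168) and 28.6 and overlapped none. All 9 lie between the pseudogenes WEE1P2 and LOC100422478, and the 3 lowest fold enrichments among the 9 belonged to pileups of 18, 28 and 34 at the level of the whole genome.

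On chromosome 10 the highest fold enrichment was 24.9, at 40980851 to 40981521, with 155 fragments in LV-HOXA5 and 80 in the control peak. On chromosome 4, the peak at 50676782 to 50677353 had 120 fragments, a fold enrichment of 24.4 and a control peak of 13. The peak at 51107223 to 51107557, whose nearest gene is DCUN1D4, had 85 fragments and 20.4, without a control peak.

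**Figure D3:**
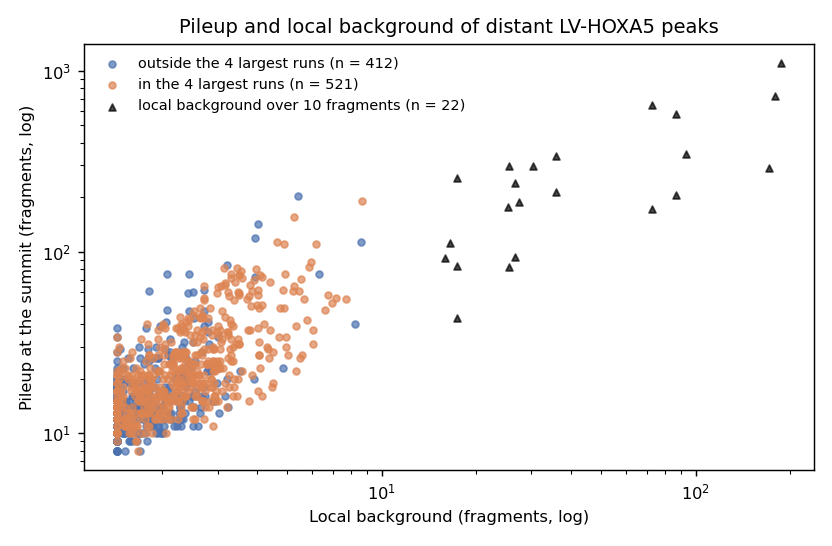
Pileup against local background (both in fragments, log axes) for the 955 distant LV-HOXA5 peaks, marked by membership in the 4 largest runs. Most points lie between 1.44 and 10 fragments of background, and 22 lie above 10 with pileups of 43 to 1097.

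A limit of 10 fragments of local background, set after the values were seen, separated 22 peaks in 3 places, beyond a gap from 8.68 to 15.9 fragments. The first place was 125178890 to 125183972 on chromosome 1, 5.08 kb with 3 peaks of 1097, 729 and 292 fragments on a background of 171 to 187. The first of these, the highest pileup of any distant peak (1033 to 1164), stood on a background 130 times the genome level, and its fold enrichment was 5.83. The last had a fold enrichment of 1.71, the lowest of the 955.

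The second place was the right end of the large run on chromosome 5, 49599557 to 49667328. All 16 distant peaks in these 67.8 kb had over 10 fragments of background, 15.9 to 93.3, and their pileups ran from 83 to 650 with a median of 211. The other 128 peaks of that run had pileups of 9 to 81 with a median of 21. This stretch lies beyond the last peak with a counterpart on chromosomes 1 or 19, which ends at 49584287.

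The third place was on chromosome 16, where 3 peaks from 38275912 to 38279582 had 255, 43 and 84 fragments on a background of 17.4. They end a run of 6 peaks that begins at 38200490 and has pileups of 25, 114 and 40 before them.

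Of the 955 distant peaks, 153 overlapped an LV-HOXA5-NC peak by 1 bp or more (16.02%, 13.7 to 18.5). Over the whole LV-HOXA5 list the share was 5.52%, and among peaks that were not distant it was 4.11% (3.66 to 4.59). It was 9.67% (8.30 to 11.2) for intergenic peaks 3 to 500 kb from a gene and 1.96% for peaks within 1 kb of a gene end. The share was not particular to a distance of over 500 kb. In the 25 gene-free intervals that held distant peaks, the 257 LV-HOXA5 peaks nearer to a gene than 500 kb overlapped the control list at 26.1% (20.8 to 31.9). For the 1428 intergenic peaks outside those 25 intervals it was 6.72% (5.48 to 8.15).

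Seen from the control list, 153 of the 168 distant LV-HOXA5-NC peaks overlapped an LV-HOXA5 peak (91.1%, 85.7 to 94.9), where 70.7% of all LV-HOXA5-NC peaks did. The distant control peaks sat on the same chromosomes, with 47 on chromosome 10, 35 on chromosome 5, 29 on chromosome 1 and 22 on chromosome 19. The 15 without an LV-HOXA5 peak had pileups of 5 to 18, 9 of them lay inside a run of distant LV-HOXA5 peaks, and 6 were on chromosome 10.

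The overlap differed from run to run. It was 41 of 136 (30.1%, 22.6 to 38.6) in the run on chromosome 10, 35 of 144 (24.3%, 17.6 to 32.1) on chromosome 5, 26 of 124 (20.97%, 14.2 to 29.2) on chromosome 1 and 20 of 133 (15.04%, 9.43 to 22.3) on chromosome 19. In the run on chromosome 20 it was 1 of 64 (1.56%, 0.0396 to 8.40). The first 4 runs held 122 of the 153 overlaps. Outside them 31 of 418 distant peaks overlapped (7.42%, 5.09 to 10.4), and of the 37 single peaks 2 did. The intervals of the first 4 runs overlap one another in part, and that of chromosome 20 lies below all of them.

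Above 24 fragments this share rose with pileup, and up to 24 it was about level. Distant peaks with a control peak had a median pileup of 36 and those without had 16. Among distant peaks of 8 to 12 fragments 14 of 195 overlapped (7.18%, 3.98 to 11.8). At 13 to 16 fragments it was 16 of 256 (6.25%) and at 17 to 24 fragments 15 of 232 (6.47%). At 25 to 49 fragments it was 50 of 183 (27.3%, 21.01 to 34.4), at 50 to 99 it was 37 of 63 (58.7%, 45.6 to 71.0), and at 100 or more 21 of 26 (80.8%, 60.6 to 93.4). These classes of pileup were set after the values were seen.

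At like pileup the distant peaks were still found in the control list at a higher share than peaks at genes. Between 25 and 49 fragments the share within 1 kb of a gene end was 14 of 498 (2.81%, 1.55 to 4.67). For intergenic peaks outside the gene-free intervals that held distant peaks it was 18 of 214 (8.41%, 5.06 to 12.97). By run, 16 of 39 distant peaks in this class overlapped on chromosome 10 and 12 of 35 on chromosome 1. It was 9 of 35 on chromosome 5 and 9 of 33 on chromosome 19. Outside the 5 largest runs it was 4 of 41 (9.76%, 2.72 to 23.1), close to the share of those intergenic peaks. In this class the excess over those intergenic peaks thus lay in these runs. Local background differed as well in this class, with medians of 2.55 fragments for distant peaks, 4.31 at gene ends and 4.44 for those intergenic peaks. From 50 to 99 fragments the shares were 10.8% at gene ends and 20.3% for those intergenic peaks. Outside the 5 largest runs 5 of 10 distant peaks overlapped in that class (50%, 18.7 to 81.3). At 100 fragments or more the shares at gene ends and for those intergenic peaks were 56.6% and 56.0%, with intervals that overlap that of the distant peaks.

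**Figure D4:**
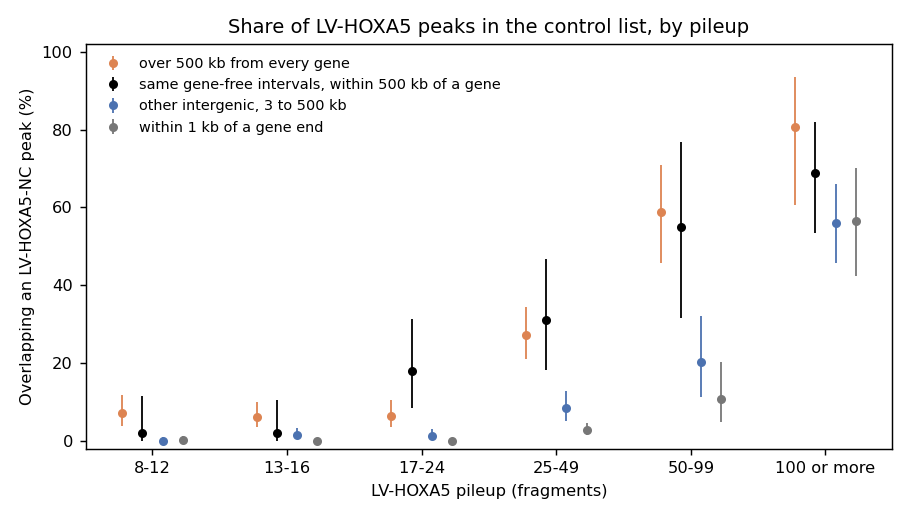
Percent of LV-HOXA5 peaks that overlap an LV-HOXA5-NC peak (points, with exact 95% binomial intervals) by class of LV-HOXA5 pileup in fragments, for distant peaks and 3 other classes of position. Distant peaks, with all runs pooled, and peaks of the same gene-free intervals lie above the other classes from 25 to 99 fragments (27.3% and 58.7% for distant peaks).

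None of the distant peaks on chromosome 20 exceeded 24 fragments, so its share is set beside those of the other large runs by class of pileup. At 8 to 12 fragments 0 of 26 overlapped there, beside 2 of 18 on chromosome 5 and 0 of 19 on chromosome 19. On chromosomes 1 and 10 it was 1 of 9 each. At 13 to 16 fragments 1 of 28 overlapped on chromosome 20. In that class it was 4 of 24 on chromosome 5, 4 of 27 on chromosome 10, 2 of 30 on chromosome 19 and 2 of 27 on chromosome 1. Between 17 and 24 fragments, 0 of 10 overlapped on chromosome 20. Beside it were 1 of 37 (2.70%) in the run on chromosome 5, 2 of 40 on chromosome 19, 2 of 39 (5.13%) on chromosome 1 and 8 of 45 (17.8%) on chromosome 10. In each class the interval of chromosome 20 overlapped those of the other runs, and a difference at like pileup was not tested.

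Where a distant peak was called in both libraries, the summits were close and the control library gave more fragments for its depth. Each of the 153 peaks overlapped a single control peak. The summits were a median of 26 bp apart, and 98 pairs (64.1%) were within 50 bp. Median pileup at these pairs was 36 fragments for LV-HOXA5 against 16 for LV-HOXA5-NC, which is 2.28 and 8.21 per 1000000 fragments of the library. Values on that scale are called scaled pileups.

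The ratio of the scaled pileup in LV-HOXA5-NC to that in LV-HOXA5 had a median of 4.05 (3.67 to 4.32). The depths and the lowest control pileup of 4 force a ratio over 1 wherever LV-HOXA5 had under 32.4 fragments, which was so at 67 of the 153 pairs. At the other 86 pairs, with a median of 64.5 fragments in LV-HOXA5, the median ratio was 3.29 (3.00 to 3.67), and 83 exceeded 1. The lowest pileup of 4 is that of the whole control list, and distant control peaks started at 5. A call also needs more fragments where the local background is higher, and distant control peaks had a median background of 1.28. Some of the 86 pairs may therefore also have been bound to a ratio over 1, and how many was not determined. At the 163 intergenic pairs 3 to 500 kb from a gene the median ratio was 3.58 and at the 55 pairs near gene ends 2.78 (2.09 to 4.09). Those pairs had median LV-HOXA5 pileups of 108 and 110 against 36 for distant pairs, and since low pileups are bound to give high ratios, the classes cannot be ranked by these medians. By run the medians were 4.53 (4.17 to 5.24) on chromosome 10, 3.71 on chromosome 5, 3.59 on chromosome 1 and 3.47 on chromosome 19. These pairs were chosen by having been called in the much shallower control library, so peaks low in that library are missing from them and the ratio does not apply to distant peaks at large. The scale also takes every fragment of a library as equal, and how many fell in background was not measured.

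The control peak was the higher of the pair in raw fragments at 1 of 153. At the highest distant peak, on chromosome 1, LV-HOXA5 had 1097 fragments (69.5 scaled) and LV-HOXA5-NC 229 (118 scaled). At 49601481 to 49602862 on chromosome 5 they had 650 and 263, and at 49658357 to 49658986 they had 576 and 264. On chromosome 16 the control pileups were 66, 108 and 40 where LV-HOXA5 had 114, 255 and 84.

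**Figure D5:**
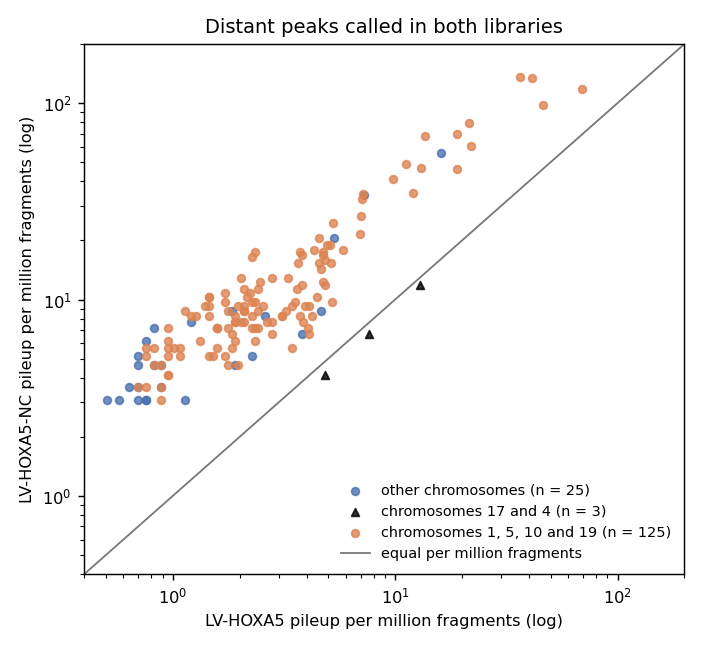
Scaled pileup of the LV-HOXA5 library (x) and of the control library (y), per 1000000 fragments on log axes, for the 153 distant peaks called in both libraries, with a line where the 2 are equal. All but 3 points, which are on chromosomes 17 and 4, lie above the line, at least 67 of them of necessity given the lowest control pileup.

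The 3 pairs with a ratio under 1 were at the peaks of high fold enrichment on chromosomes 17 and 4. At 25920029 on chromosome 17 the pileups were 204 and 23 (12.9 and 11.8 scaled, ratio 0.913), at 25074262 they were 76 and 8 (ratio 0.852), and at 50676782 on chromosome 4 they were 120 and 13 (7.61 and 6.67 scaled, ratio 0.877). These were the only shared distant peaks on chromosomes 17 and 4, and they were singled out after the values were seen.

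At 100 or more fragments 5 distant peaks had no control peak. The peak of 292 fragments on chromosome 1 and those of 172, 188 and 239 on chromosome 5 stood on a background of over 10 fragments. At the depth of the control library they would have had 36.1, 21.2, 23.2 and 29.5 fragments, on backgrounds of 21.1, 8.95, 3.39 and 3.29. The fifth, with 143 fragments at 25389774 on chromosome 17, stood on 4.04 fragments. At that depth it would have had 17.7 fragments on a background of 0.498. Among distant peaks lacking a control peak, the 5 of highest fold enrichment were split: 3 were on chromosome 17 (143, 76 and 61 fragments), 1 on chromosome 4 (85) and 1 on chromosome 7 (59, at 60418649 to 60419065). At the depth of the control library the last 4 would have had 9.39, 7.53, 10.5 and 7.29 fragments, above the lowest pileup of that list.

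At the low end, 45 shared distant peaks on 13 chromosomes had at most 24 fragments in LV-HOXA5, with a median of 14. Their control pileups were 6 to 20 with a median of 10, and the median ratio of scaled pileups was 5.61, all over 1 by the lowest pileup of the control list. The other 802 distant peaks, without a control peak, had a median pileup of 16 and a median fold enrichment of 5.94, against 9.20 for those with one. Of the 802, 194 were shorter than 283 bp, the shortest peak the control list allows, as were 6 of the 153. A pileup of 16 corresponds to 1.98 fragments at the depth of the control library, below the lowest pileup of its list, 4, so control signal of equal strength per fragment would not have been detectable there.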

How the data were processed

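Peak lists of 2 CUT & Tag libraries were used, LV-HOXA5 and LV-HOXA5-NC, 1 per condition. The authors' processing notes name fastp, Bowtie2, deepTools, MACS2 and ChIPseeker and the build GRCh38, without roles. Per the file headers, the authors ran MACS 2.2.7.1 on each library separately, with no control file, using paired-end fragments after duplicate removal, at a q-value of 0.05 and with a local window of 10 kb. The deposited pileup is a signal, the coverage by fragments at the summit, not scaled for depth. The deposited fold enrichment is a ratio to the local background of the same library. The deposited p-values and q-values are on the −log10 scale, and the deposited score is derived from the q-value. Whether reads matching several places were kept is not given in the sources used here.

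Distances were computed from peak edges to the 59792 genes of a RefSeq table of GRCh38.p14. Overlap meant 1 bp or more. Shares have exact (Clopper-Pearson) intervals, medians order-statistic intervals and pileups exact Poisson intervals, all at 95%. PCR copies were removed by the authors without molecular identifiers. Offsets between chromosomes came from summit differences in windows of 100 bp. A pair of chromosomes was taken as sharing an offset where the best window held at least 4 pairs of peaks and 3 times the next one. The scripts were tested on simulated peaks. Python 3.11.15, pandas 2.3.3, NumPy 2.4.6 and SciPy 1.17.1 were used.

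Regions named in the text were the 10 runs with most peaks, the 10 distant peaks of highest fold enrichment, the 5 of highest pileup and of highest background, the 5 of highest fold enrichment among those lacking a control peak, and the 3 on either side of the distance limit. The flanking genes of a run are not all reported here. Further regions (chromosomes Y, 16 and 17, counterparts on chromosomes 1, 5 and 19) were chosen after their values were seen. The distant peaks, classes and comparisons were chosen with earlier results of these data known. Alternatives were other gene sets, distances, thresholds, definitions of overlap and run, and subsets of the distant peaks.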

Additional observations from a re-analysis of the deposited data

How the results depend on the processing

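The 10 summary values were recomputed under 19 alternatives, giving 115 comparisons. Of these, 89 stayed within the counting interval of the reported value, or within 1.5 times for counts. The other 26 follow, and the cause was not tested beyond what each alternative changes by its construction. With protein-coding genes only, the distant peaks numbered 1452 in 229 runs, the largest run held 9.92% and the first chromosome 11.4%, median background was 2.12, median fold enrichment 5.62 and the median ratio at shared peaks 3.64. With a distance of over 1 Mb there were 586 peaks in 53 runs, 19.6% overlapped the control list, the largest run held 20.6% and the first chromosome 21.7%, median background was 2.07 and median pileup 19. At a q-value of 0.001 or less median fold enrichment was 6.24. With only peaks whose fold enrichment reached the median of the whole list, median pileup was 20. Gaps of up to 10 kb gave 632 runs, the largest with 1.47% of the peaks, and gaps of up to 1 Mb gave 26 runs. Background as pileup over fold enrichment had a median of 2.79. The next 2 alternatives were chosen after seeing the data. For peaks of at least 283 bp, overlap was 19.5%, median background 2.05 and median fold enrichment 6.30. With 1 peak for each position that recurs between chromosomes, 701 remained and median fold enrichment was 5.84. The peak kept was that on the lowest-numbered chromosome. Positions shared with chromosome 1 were thus kept there and dropped from chromosomes 5 and 19, and likewise among chromosomes 13, 14, 21 and 22. Under that rule chromosome 10 came first, and both it and its run held 19.4%. Its place follows from which copy was kept and is not a result about chromosome 10. With 1 peak for each position overlap was 15.3% and the median ratio 4.05.

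No paired analysis was possible because each condition had 1 library, and for the same reason no library could be left out. The values say nothing of how replicates would vary. The control library was 8.10 times shallower, which limits what can be called in it. Without the 22 peaks of high background, and without chromosome Y (both also chosen after seeing the data), the 9 summary values of distant LV-HOXA5 peaks stayed within these limits. Without the 22, though, the run and the chromosome with most peaks were those of chromosome 10, with 14.6%.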
